A study of Mus musculus with 4 samples.

Results

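The genes described here code for the proteins of the cytosolic ribosome, and they were chosen by name: every non-control probe whose gene symbol was Rpl or Rps followed by a number (with at most a letter or an x after it), Rplp0 to Rplp2, or Rpsa. The rule found 80 genes with 134 probes, of 28482 genes or named features and 41174 probes on the array, and it left out S6 kinases and pseudogene names. The RNA came from sorted DP thymocytes, the immature T cells that carry CD4 and CD8 at once, taken from untreated mice of 6 to 12 weeks that were sex-matched littermates. Both genotypes carried loxP-flanked Usp8 alleles (Usp8 is a deubiquitinase of the endosome). USP8ff mice had no Cre and were the controls, and USP8ff_CD4Cre mice had in addition Cre under Cd4 regulatory sequences. Each sample pooled 2 mice, and each genotype had 2 samples (8 mice in all), so that p-values measure the spread between pools. No group carried Cre without the loxP alleles, so Cre itself and the loss of Usp8 cannot be told apart.

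The cytosolic ribosome is built from a large subunit, which joins amino acids, and a small subunit, which reads the mRNA. Proteins of the large subunit are named Rpl and those of the small subunit Rps, and each ribosome needs the proteins in nearly equal number. Their mRNAs are among the most abundant in growing cells, and they share a 5′ terminal oligopyrimidine (TOP) tract, a C at the cap followed by pyrimidines, through which mTORC1 and the protein Larp1 adjust their translation together. In the thymus, Rpl22 is known for its need in developing αβ T cells, and the move from the CD4-CD8- stage to the DP stage is accompanied by a burst of growth and division.

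The TOP tract was visible in the reference sequence of a share of these genes. RefSeq (GRCm38.p6) promoter windows, from 250 bases before to 50 bases after the annotated start, were at hand for 60 of the 80 genes. In 13 of the 60 (21.7%), the annotated first base was a C followed by 4 or more pyrimidines, against 2.97% of 26965 other genes. Exact TOP starts are easily missed when an annotated start lies a few bases off, so the share describes the annotation. The windows below run from 40 bases before the start to 15 bases from it, with the tract in capitals, and are shown because the tract is the sequence feature that these genes hold in common and that the name rule did not use.

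Rpl35 (chr2:39005117-39005171, minus strand): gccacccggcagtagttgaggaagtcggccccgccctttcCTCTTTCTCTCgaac
Rpl15 (chr14:18270972-18271026, minus strand): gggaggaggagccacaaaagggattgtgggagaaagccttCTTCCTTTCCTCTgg
Rpl38 (chr11:114668540-114668594, plus strand): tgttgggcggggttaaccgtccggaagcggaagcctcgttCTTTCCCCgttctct
Rplp2 (chr7:141447611-141447665, plus strand): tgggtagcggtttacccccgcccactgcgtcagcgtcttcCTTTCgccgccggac
Rps6 (chr4:86857353-86857407, minus strand): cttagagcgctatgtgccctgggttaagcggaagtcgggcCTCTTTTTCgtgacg
Rps10 (chr17:27635230-27635284, minus strand): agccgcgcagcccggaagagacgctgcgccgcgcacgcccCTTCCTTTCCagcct
Rps27 (chr3:90213634-90213688, minus strand): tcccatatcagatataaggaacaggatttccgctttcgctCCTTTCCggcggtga

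Over the whole windows, on both strands, the ETS-type motif CCGGAAG was found in 26 of 60 ribosomal protein genes (43.3%) and 9.85% of the other genes. The YY1-type motif AAGATGG stood in 9 (15%) against 7.26%, and the GC box GGGCGG stood in 36 (60%) against 38.2%. The TATA motif TATAAA stood in 6 (10%) against 15.7%. Each search was by exact letters, AAGATGG can overlap a start codon, and a match describes the window only. The median log2 difference between genotypes was 0.19 over the 13 genes with a tract at the start, all of them positive. It was 0.16 over the 46 measured genes with a window and no tract, of which 43 were positive, and 0.14 over the 20 measured genes with no window, all of them positive.

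The array reads each gene through 60-base probes, and 4 probes of these genes lie, by the array's own mm9 coordinates, on another chromosome than their gene. They are assigned to Rpl10, Rpl12, Rplp0 and Rps29. Ribosomal protein genes have many processed copies in the genome, so that reads of a gene and of its near-identical copies cannot be separated at such probes. Rplp0, the scaffold of the P-stalk that recruits elongation factors, shows both kinds. Rps29, a small zinc-binding protein of the small subunit, is read on this array only through a probe placed on chromosome 2. The probes of Rpl3, a core protein of the large subunit, and of its muscle paralog Rpl3l are printed for the contrast in signal between paralogs that comes next.

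Rplp0, probe at chr5:116011423-116011482: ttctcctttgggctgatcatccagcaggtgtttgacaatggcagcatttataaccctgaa
Rplp0, probe at chr8:105389405-105389464: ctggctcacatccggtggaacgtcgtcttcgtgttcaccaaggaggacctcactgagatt
Rps29, probe at chr2:172335024-172335083: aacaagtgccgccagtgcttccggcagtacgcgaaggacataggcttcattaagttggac
Rpl3, probe split over chr15:79910252-79910826: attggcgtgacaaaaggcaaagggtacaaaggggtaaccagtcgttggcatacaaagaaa
Rpl3l, probe split over chr17:24872413-24872681: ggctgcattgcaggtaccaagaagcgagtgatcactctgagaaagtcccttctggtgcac

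Each of the 5 probes has at least 1 reading frame without a stop codon. The Rpl3 and Rpl3l probes match the genome in pieces. They are among the 38 of the 134 probes whose genome span exceeds their 60 bases by more than 2.

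The 4 arrays lay on 1 slide, with USP8ff at positions 1 and 3 and USP8ff_CD4Cre at positions 2 and 4. The scanner marked between 18535 and 20153 of the 41174 probes as well above background and none as saturated. Levels are log2 signal minus the 75th percentile of each array, and 0 stands for that percentile. The USP8ff samples had Usp8 at -0.23 and -0.40 and the USP8ff_CD4Cre samples at -1.03 and -1.23, a difference of -0.81 (SE 0.13), and limma gave an adjusted p of 0.60 over 13062 genes. The labels do not say which exons the loxP sites flank, and where this probe lies relative to them is not known. All 10 DP markers were kept by the filter, 3 of them higher and 7 lower in USP8ff_CD4Cre, with a median difference of -0.06. Both USP8ff_CD4Cre arrays lay below both USP8ff arrays in 4 of the 10, against 16.3% of all genes. They lay above in 2, against 24.3%. All of the differences below are USP8ff_CD4Cre minus USP8ff on the log2 scale, and limma called 0 of the 13062 genes at an adjusted p under 0.05, while 970 had an unadjusted p under 0.05.

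The ribosomal protein probes sat at the top of the scanner's range. Their median probe lay at the 99.1st to 99.2nd percentile of all spots, depending on the array. They made up 0.33% of the spots but carried 11.4% and 10.6% of the summed signal in USP8ff and 11.3% and 11.6% in USP8ff_CD4Cre. Of the 100 brightest spots, 40 or 41 were theirs. A probe's brightness also depends on its sequence, so these positions describe the scanner's range and do not rank the mRNAs.

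Rplp0 had the highest processed signal of the set on each array, and the highest raw spot of the set reached 48.8% to 56.0% of the saturation value, depending on the array. The scanner read each array at a high and a low gain, and between 65.7% and 67.8% of the ribosomal protein spots took their value from the low-gain reading, against 2.01% to 2.24% of all spots. None of the ribosomal protein spots was saturated or marked as an outlier on any array.

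**Figure D1:**
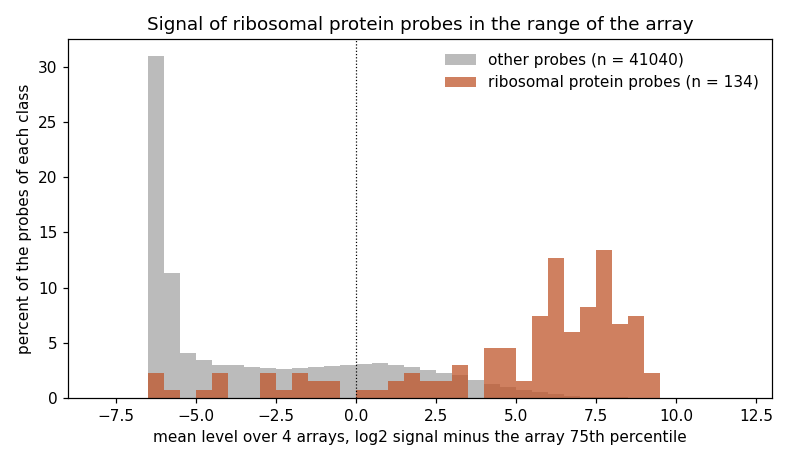
Distribution of the mean level over 4 arrays for 134 ribosomal protein probes (orange) and 41040 other probes (grey); the x axis is log2 signal minus the array's 75th percentile (dotted line at 0) and the y axis is the percent of each class of probes. Most ribosomal protein probes lie far above the dotted line, and a minority is as dim as the bulk of the array.

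The filter kept 79 of the 80 genes (47 of the large subunit, 32 of the small) and 126 of the 134 probes. The same 79 genes passed when a signal well above background was asked of all 4 arrays, so none entered through 1 genotype alone. The gene not kept was Rpl3l, the paralog of striated muscle, at -4.61 and -4.49 in USP8ff and -3.98 and -4.01 in USP8ff_CD4Cre. Its probe was well above background on 1 array of 4. Rpl3 itself was at 6.25 and 6.26 in USP8ff and 6.07 and 6.55 in USP8ff_CD4Cre, a difference of 0.05 (SE 0.18). Both USP8ff values of Rpl3 lay between those of USP8ff_CD4Cre.

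The 79 genes shifted together from array to array. Measured as the median deviation from each gene's mean over the 4 arrays, the shift was -0.02 in USP8ff 1, -0.14 in USP8ff 2, 0.03 in USP8ff_CD4Cre 1 and 0.12 in USP8ff_CD4Cre 2. The same measure over all 13062 genes stayed between -0.02 and 0.01. USP8ff 2 was the lowest array for 68 of the 79 genes, against 29.0% of all genes, and USP8ff_CD4Cre 2 was the highest for 61, against 31.7%. The order USP8ff 2, USP8ff 1, USP8ff_CD4Cre 1, USP8ff_CD4Cre 2, from low to high, held for 37 of the 79 (46.8%) and for 10.1% of all genes.

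Other bright probes moved in the same direction. For 255 other genes at or above the lower quartile of the ribosomal protein genes' level (6.17), the shifts were -0.05, -0.05, 0.03 and 0.09 in the same order of samples. The array also carries E1A probes for spike-in control RNAs, which are made apart from the cells, and 6 of these probes were brighter than the 75th percentile. For USP8ff they shifted by 0.01 and -0.15, for USP8ff_CD4Cre by 0.05 and 0.08, and all 6 followed the array order given above. USP8ff 2 was thus the lowest and USP8ff_CD4Cre 2 the highest for the spike-in probes as for the ribosomal protein genes. Values with each array scaled to these probes are given with the other ways of processing.

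**Figure D2:**
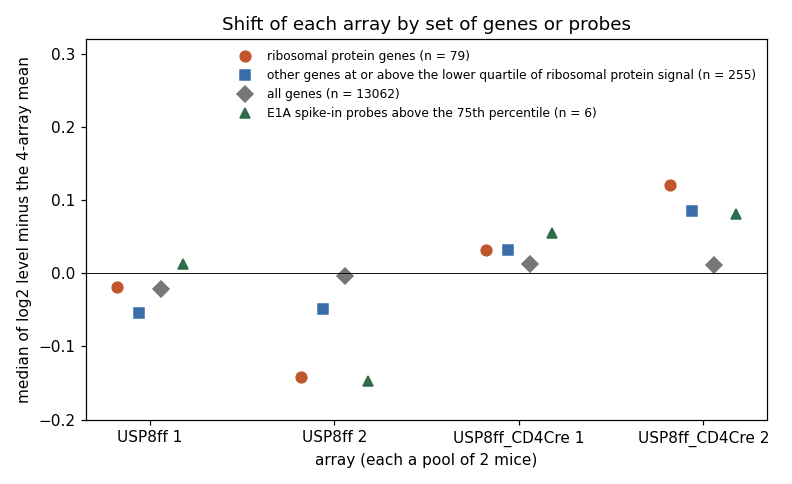
Median deviation of the log2 level from the 4-array mean (y axis) on each array (x axis, each a pool of 2 mice) for 79 ribosomal protein genes, 255 other genes of their signal range, all 13062 genes and 6 spike-in probes. The ribosomal protein genes and the spike-in probes are both lowest in USP8ff 2 (-0.14 and -0.15) and highest in USP8ff_CD4Cre 2 (0.12 and 0.08), while all genes stay near 0.

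Between genotypes, 76 of the 79 ribosomal protein genes had a positive difference, against 54.8% of all genes tested. Their median difference was 0.15, with quartiles of 0.11 and 0.20 and a range of -0.23 to 0.36. The median was 0.02 over all genes and 0.11 over the 255 other bright genes, of which 80.8% were positive. In 51 of the 79 genes both USP8ff_CD4Cre arrays lay above both USP8ff arrays, against a background of 24.3% of all genes and 49.8% of the other bright genes. In none of the 79 did both lie below, against 16.3% of all genes.

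None of these genes passed limma's test: 0 of 79 had an adjusted p under 0.05, as for all genes (0%), and the smallest adjusted p was 0.66. Before adjustment, Rps27l, Rpl37 and Rpl41 (3 genes) had p under 0.05, all higher in USP8ff_CD4Cre, against 3.97% of all genes higher and 3.46% lower. The split of directions depended on the scaling: quantile normalisation left 51 genes positive and 28 negative, cyclic loess 58 and 21, and scaling to the spike-in probes 45 and 34. The median difference was then 0.04, 0.06 and 0.02. These are bulk samples, in which fewer cells of a type and less RNA per cell cannot be told apart.

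**Figure D3:**
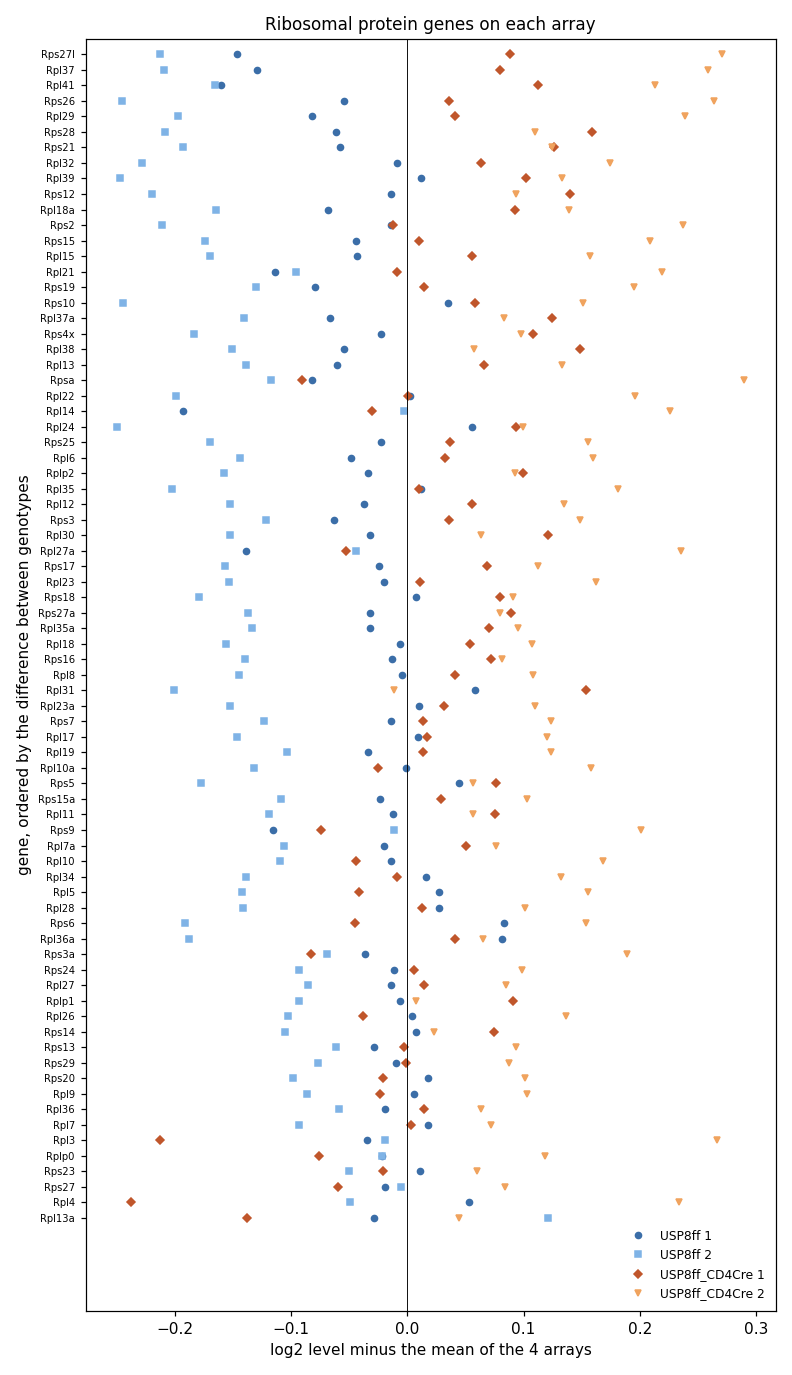
Deviation of the log2 level from the mean of the 4 arrays (x axis) for 76 ribosomal protein genes (y axis, ordered by the difference between genotypes), with a marker for each array; Rpl39l, whose range is far wider, is among those not drawn. USP8ff 2 (light blue squares) lies at the left and USP8ff_CD4Cre 2 (light orange triangles) at the right of most genes.

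Within a genotype, the spread of the 79 genes was close to that of other bright genes. The median SD between the 2 pools of a genotype was 0.09 per gene, 0.09 for the other bright genes too, against 0.12 over all genes. For the 79 genes it was 0.05 after their own median shift on each array was subtracted. The values of the other sets keep their array shifts, so they cannot be set beside the 0.05. After that subtraction, 70 of the 79 differences lay within 1 SE of 0, with the SE taken from the fit before it. That SE still holds the array shift, so the count cannot show whether differences of single genes remained. The largest that remained were 0.20 for Rps27l, 0.18 for Rpl37 and 0.17 for Rpl41 on the positive side. Rpl39l at -0.39 and Rpl13a at -0.25 were at the negative end.

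**Figure D4:**
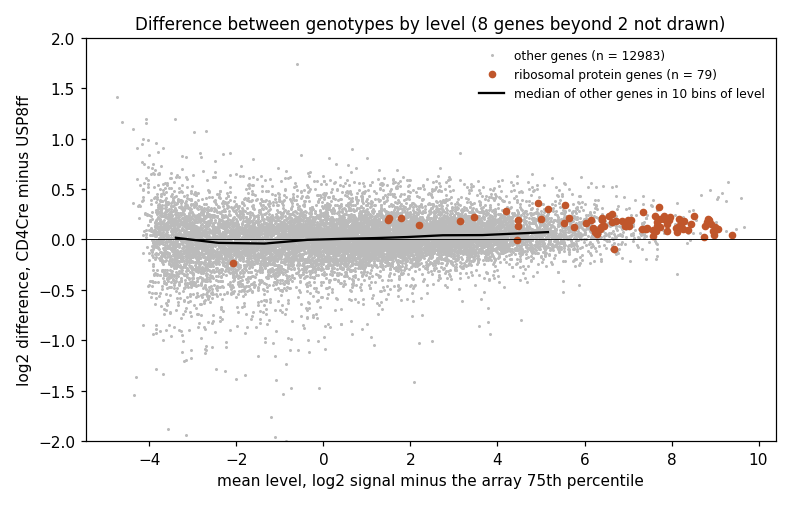
Difference between genotypes (y axis, log2, USP8ff_CD4Cre minus USP8ff) against the mean level (x axis, log2 signal minus the array's 75th percentile) for 79 ribosomal protein genes (orange) and 12983 other genes (grey), of which 8 lie beyond the y axis; the line joins the medians of other genes in 10 equal bins by level. The line is at -0.04 in bin 3 and 0.07 in the brightest bin, and nearly all ribosomal protein genes lie above 0.

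The difference between genotypes also moved with signal among the other genes. Over 12983 genes in 10 equal bins by level, counted from the dimmest, the median difference was -0.03 in bin 2 and -0.04 in bin 3. It was 0.04 in bin 8 and 0.07 in the brightest bin, where 71.0% of genes were positive. Within the ribosomal protein genes it did not climb further with signal: the median was 0.19 in the 20 dimmest of the 79 and 0.13 in the 20 brightest.

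The 47 genes of the large subunit had a median difference of 0.15, and 44 were positive. Rpl37, a zinc-binding protein of the large subunit, was at 5.42 and 5.34 in USP8ff and 5.63 and 5.81 in USP8ff_CD4Cre. The groups did not overlap, and the difference was 0.34 (SE 0.12, limma adjusted p = 0.67). Rpl41, a very short basic peptide at the bridge between the subunits, was at 7.56 and 7.56 in USP8ff and 7.83 and 7.93 in USP8ff_CD4Cre. Its difference was 0.33 (SE 0.11, limma adjusted p = 0.66), again without overlap. Rpl29 was at 4.12 and 4.01 against 4.24 and 4.44, a difference of 0.28 (SE 0.12).

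The large-subunit genes below or near 0 were fewer. Rpl13a, known also for a role outside the ribosome in silencing inflammatory mRNAs, was at 6.65 and 6.80 in USP8ff and 6.54 and 6.72 in USP8ff_CD4Cre. The groups overlapped, with a difference of -0.09 (SE 0.13, limma adjusted p = 0.87). Rpl4, a core protein of the exit tunnel, was at 4.51 and 4.41 against 4.22 and 4.69, a difference of -0.0040 (SE 0.18). The USP8ff_CD4Cre arrays enclosed both USP8ff values. Rpl7a, among the 5 brightest, was at 8.99 and 8.90 against 9.06 and 9.09 at the brightest of its 3 kept probes. The groups did not overlap there, with a difference of 0.13 (SE 0.11). At the middle probe the difference was 0.13 too, without overlap. The dimmest probe was at 6.14 and 5.95 against 5.98 and 6.15, with overlap and a difference of 0.02. The difference at the brightest Rpl7a probe was negative under quantile normalisation (-0.07), cyclic loess and the spike-in scaling.

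Rpl22, the member with a known need in T-cell development, was read by a bright and a dim probe. The bright probe was at 6.41 and 6.21 in USP8ff and 6.41 and 6.60 in USP8ff_CD4Cre, and the dim probe at 2.20 and 1.98 against 1.95 and 2.05. The differences were 0.20 (SE 0.13) and -0.09, and the groups overlapped at both probes. Rpl14, Rpl21 and Rpl31 were among the 5 genes of lowest signal in the set. Rpl14 was at 1.28 and 1.47 against 1.45 and 1.70, a difference of 0.20. Rpl21 was at 1.68 and 1.70 against 1.78 and 2.01, a difference of 0.21 without overlap, and Rpl31 at 2.25 and 1.99 against 2.34 and 2.17, a difference of 0.14. No gene of this dim group passed the test either.

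All 32 small-subunit genes had a positive difference, with a median of 0.16. Rps26, which lines the mRNA exit channel, was at 5.11 and 4.92 in USP8ff and 5.20 and 5.43 in USP8ff_CD4Cre, a difference of 0.30 (SE 0.14, limma adjusted p = 0.70). Rps28 was at 7.28 and 7.13 against 7.50 and 7.45, a difference of 0.27 (SE 0.11, limma adjusted p = 0.67). Neither gene's groups overlapped at the brightest kept probe. Rps28 had 3 kept probes, and at the middle one the difference was 0.27 too, without overlap. Its dimmest probe was at 0.75 and 1.26 against 1.06 and 1.07, with overlap and a difference of 0.06. Rps19, the small-subunit protein most often mutated in Diamond-Blackfan anaemia, was at 1.43 and 1.38 against 1.52 and 1.70, a difference of 0.21 (SE 0.12), also without overlap.

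Differences near 0 were measured for Rps27 and Rps23, both bright, while the difference of Rps12, also bright, was 0.23. Rps27 was at 8.72 and 8.74 in USP8ff and 8.68 and 8.83 in USP8ff_CD4Cre, a difference of 0.02 (SE 0.11). Rps23, a protein of the decoding centre, was at 8.99 and 8.93 against 8.95 and 9.04, a difference of 0.04 (SE 0.11). In both genes the genotypes overlapped. Both differences turned negative under quantile normalisation, cyclic loess and scaling to the spike-in probes. Rps14 was at 9.003 and 8.89 against 9.07 and 9.02, a difference of 0.10 (SE 0.11) with no overlap, and it too was negative under those 3 scalings.

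Rpsa, which assembles into the small subunit and is known also as a laminin receptor, was at 4.91 and 4.88 in USP8ff and 4.91 and 5.29 in USP8ff_CD4Cre. At this probe, the brighter of 2 kept, the difference of 0.20 (SE 0.16, limma adjusted p = 0.77) came from USP8ff_CD4Cre 2 alone. There USP8ff_CD4Cre 1 lay between the USP8ff samples. The dimmer Rpsa probe was at -0.98 and -0.99 against -0.87 and -0.61, a difference of 0.24 (SE 0.13) without overlap. Rps27a, a fusion of ubiquitin to a small-subunit protein, was at 7.64 and 7.53 against 7.76 and 7.75. Its groups did not overlap, and the difference was 0.17 (SE 0.11, limma adjusted p = 0.72).

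The P-stalk genes Rplp0, Rplp1 and Rplp2 code for the flexible arm of the large subunit on which elongation factors act. Rplp0 was at 9.37 and 9.37 in USP8ff and 9.32 and 9.51 in USP8ff_CD4Cre through its brightest probe, a difference of 0.04 (SE 0.12). Its other probes were at 7.64 and 7.41 against 7.69 and 7.86 (the chromosome 5 probe printed above) and at 5.46 and 5.32 against 5.49 and 5.75 (the chromosome 8 probe, a mean of 10 spots). Both of those had no overlap, with differences of 0.25 and 0.23, so that the choice of probe moved the Rplp0 value by more than its SE. Rplp1 was at 9.05 and 8.97 against 9.15 and 9.07, a difference of 0.10 (SE 0.11). Rplp2 was at 8.82 and 8.69 against 8.95 and 8.94, a difference of 0.19 (SE 0.11, limma adjusted p = 0.70). Rplp1 and Rplp2 did not overlap between genotypes, but under quantile normalisation the differences of Rplp0, Rplp1 and Rplp2 were -0.16, -0.13 and -0.0058. Those of Rplp0 and Rplp1 were negative under cyclic loess and the spike-in scaling too.

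Among the paralogs, Rps27l, a paralog of Rps27 known as a target of p53, had the largest difference of the set. It was at 4.78 and 4.71 in USP8ff and 5.01 and 5.19 in USP8ff_CD4Cre, with no overlap and a difference of 0.36 (SE 0.12, limma adjusted p = 0.66). Rpl39l, a paralog of Rpl39 best known from the testis, was at -0.86 and -3.05 against -1.31 and -3.06. The sample numbered 1 was far above the sample numbered 2 in both genotypes, and the difference between genotypes of -0.23 had an SE of 0.88. A second Rpl39l probe was below background on all 4 arrays. Rpl39 itself was at 6.57 and 6.31 against 6.66 and 6.69, a difference of 0.24 (SE 0.13) without overlap.

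Where several probes read a gene, they could differ in direction. Of 41 genes with more than 1 probe, 36 had more than 1 probe kept, and in 7 of these the kept probes differed in sign. They included Rpl11, Rpl13, Rpl22, Rps12, Rps15a and Rps20. In Rpl11, which can bind Mdm2 outside the ribosome, the brighter probe was at 8.75 and 8.65 against 8.84 and 8.82 and the dimmer at 1.87 and 2.15 against 1.87 and 1.96. The differences were 0.13 and -0.09. In Rps20 the brighter probe gave 0.08 and the dimmer, at -2.31 and -2.68 against -2.94 and -2.57, gave -0.26. The dimmer Rps20, Rpl11, Rpl13 and Rps12 probes carry accessions other than RefSeq transcripts. At the brighter probe, Rpl11 turned negative under quantile normalisation and the spike-in scaling, Rps20 under these and cyclic loess, and Rps15a under the spike-in scaling.

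The pattern by probe class was as follows. The 111 kept probes with a RefSeq accession had a median difference of 0.16, and 106 were positive, while the 15 with another accession had a median of 0.06 and 10 positive. The 115 kept probes above the 75th percentile had a median of 0.15, with 110 positive, and the 11 below it had a median of 0.02, with 6 positive. Probes whose genome span exceeded their 60 bases by more than 2 had a median of 0.14 (36 of 37 positive). The other probes with coordinates had 0.15 (79 of 88). These include a probe of Rps3 and one of Rps3a whose coordinates span only 14 and 25 bases. For Rps12 the brighter probe gave 0.23 and the dimmer -0.23, for Rpl13 the brightest 0.20 and the dimmest -0.11, and for Rps15a 0.13 and -0.09.

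Genes that work with the ribosome, on lists drawn up for this comparison, were mostly positive, except for the regulators of ribosomal protein mRNAs. Positive differences made up 54.8% of all genes and 80.8% of the other bright genes. No gene of these lists passed limma's test or had an unadjusted p under 0.05. Of 6 kept genes for other ribosomal proteins, proteins named like them or the ribosome-bound scaffold, all were positive, with a median of 0.18. This list is called other ribosomal proteins below. Rpl7l1 was at 2.03 and 2.11 in USP8ff and 2.25 and 2.25 in USP8ff_CD4Cre, a difference of 0.19, and its groups did not overlap.

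Among elongation factors and other TOP-type mRNAs, 12 of 12 were positive, with a median of 0.10. Npm1, the nucleolar chaperone nucleophosmin, was at 6.29 and 6.26 against 6.31 and 6.60, a difference of 0.18, and Btf3 at 4.95 and 4.98 against 5.03 and 5.19, a difference of 0.15. Of 29 initiation factors, 27 were positive, with a median of 0.14. Eif5a, which relieves stalled ribosomes, was at 5.05 and 4.80 against 5.11 and 5.35, a difference of 0.31. Eif3a was at 3.41 and 3.50 against 3.66 and 3.68, a difference of 0.21. Both USP8ff_CD4Cre arrays lay above both USP8ff arrays in 7 of the 12 and 20 of the 29, against 24.3% of all genes. The share was 49.8% of the other bright genes. The elongation list was about as bright as these (median level 6.27 to 6.51 by array), and the initiation list was dimmer (4.50 to 4.64). The genes named are those of smallest p.

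Of 42 genes of ribosome biogenesis, 36 were positive, with a median of 0.11. Both USP8ff_CD4Cre arrays lay above both USP8ff arrays in 17 of them (24.3% of all genes) and below in 1 (16.3%). Nhp2 was at 2.69 and 2.52 against 2.78 and 2.999, a difference of 0.28. Nop10 was at 3.93 and 4.07 against 4.30 and 4.25, a difference of 0.27. Both belong to the box H/ACA particles that modify rRNA. Of 14 regulators of ribosomal protein mRNAs, 8 were positive (54.8% of all genes) and the median was 0.04. Among them, 4 genes were apart upward and 4 downward, against 24.3% and 16.3% of all genes. Larp1, which binds the TOP tract, was at 2.60 and 2.55 against 2.76 and 2.89, a difference of 0.25. Eif4ebp1, a translational repressor under mTORC1, was at 0.51 and 0.79 against 0.90 and 1.02, a difference of 0.31. With the spike-in scaling the medians of the elongation, biogenesis and regulator lists were -0.04, -0.02 and -0.09.

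Markers of dividing cells followed the same array order in 6 of 7 genes, the exception being Mki67. All 7 listed genes were kept and positive, with a median difference of 0.51, and all 7 had groups apart (24.3% of all genes). Their summed level (log2 of the summed scaled signals) was 6.98 and 6.89 in USP8ff and 7.27 and 7.59 in USP8ff_CD4Cre. Of the markers of other cells, 3 of 4 kept (of 5 listed) for mature single-positive cells, 3 of 4 kept (of 7) for NK or innate T cells and 4 of 5 kept (of 11) for macrophages and dendritic cells were lower in USP8ff_CD4Cre. In that order of lists, the median differences were -0.65, -1.44 and -0.19, and the summed levels, in which the brightest kept marker of a list weighs most (Klf2 at 0.23 and Gzma at 0.42 were the exceptions in the first and the second list), were 6.49 and 6.59 against 6.65 and 6.81, 1.92 and 1.95 against 1.75 and 2.24, and 1.13 and 1.31 against 0.35 and 0.67. Few markers of the other lists were kept: 1 of 5 for B cells (Cd79b), 1 of 5 for erythroid cells and 2 of 5 for thymic stroma. The erythroid marker Hba-a2 was higher in USP8ff_CD4Cre 2 alone, at -1.58 against -3.24 to -3.18 in the other samples. The part of these cells in the ribosomal protein values was not tested.

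**Figure D5:**
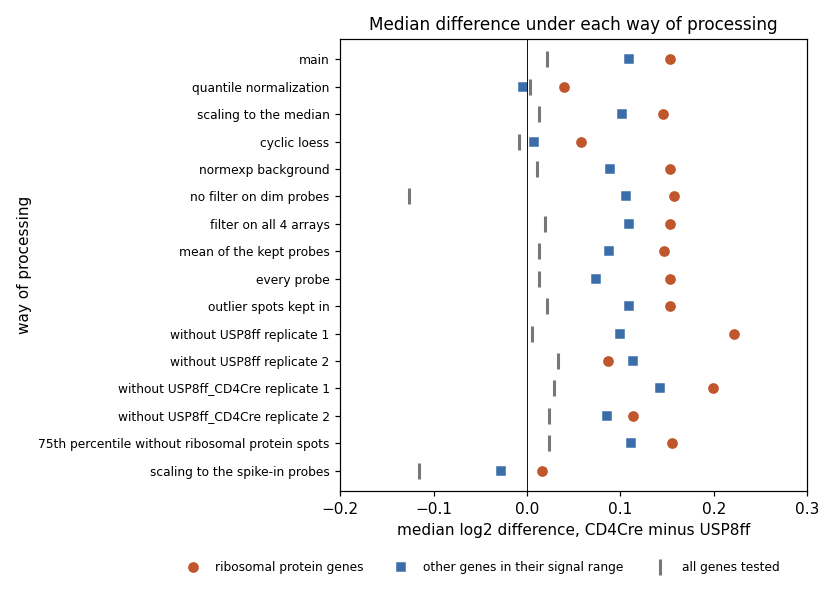
Median log2 difference between genotypes (x axis, USP8ff_CD4Cre minus USP8ff) under each way of processing (y axis) for the ribosomal protein genes (circles), other genes of their signal range (squares) and all genes tested (bars). The circles lie between 0.02 (spike-in scaling) and 0.22 (without USP8ff replicate 1) and are right of the squares in each row drawn except that without USP8ff replicate 2.

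Across the ways of processing, the median difference of the ribosomal protein genes stayed above 0 and its size depended on the scaling and on single samples. It was 0.22 without USP8ff replicate 1, 0.09 without USP8ff replicate 2, 0.20 without USP8ff_CD4Cre replicate 1 and 0.11 without USP8ff_CD4Cre replicate 2. Leaving the ribosomal protein spots themselves out of the 75th percentile left it at 0.16. The other bright genes were at -0.0042 with quantile normalisation, 0.0075 with cyclic loess and -0.03 with the spike-in scaling, beside 0.04, 0.06 and 0.02 for the ribosomal protein genes. The spike-in scaling was chosen after the values were seen. The authors' deposited table lists 78 of the 41174 probes, with a fold of 2.002 or more and a p-value under 0.05 in their own comparison. Of these, 0 were probes of ribosomal protein genes. The largest fold of a kept ribosomal protein gene here was 1.28 (Rps27l), below that limit, so the count says nothing further about them.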

How the data were processed

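Per the labels' protocols, RNA from each of the 4 sorted samples was labelled with Cy3. Spots of the 1-colour Agilent arrays were quantified and background-subtracted by Feature Extraction 10.7.3.1, per the file headers; coordinates are mm9. The deposited scanner files hold spot intensities, and the authors' deposited table lists p-values and absolute fold changes (ratio, direction not used). A deposited table with 4 per-sample columns that match no label was not used.

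Levels are log2 intensity minus the array's 75th percentile over non-control spots. Outlier spots were dropped (none of them a ribosomal protein spot), spots of a probe were averaged, and a probe was kept if both arrays of either genotype had it well above background. The brightest probe stood for each gene. Genotypes were compared with limma 3.58.1 (R 4.3.3; 2 samples against 2, Benjamini-Hochberg over 13062 genes), tested on simulated data. The number of arrays limits the precision. Genes were named by rule: Usp8, the extremes of level and difference, the P-stalk, Rpsa, Rps27a, Rpl22, paralogs, members not kept, members whose probes differ in sign, and up to 2 genes of smallest p in each translation list; Rpl3, Rpl39, the probes printed and the markers Cd79b, Gzma, Hba-a2, Klf2 and Mki67 were named after their values were seen. Some genes that the rule names are not reported here. The members and lists were chosen with earlier results of these data known. Alternatives were other scalings, background correction, filters, probe rules, a replicate block, a trended variance and leaving out each array. Sequences are from RefSeq (GRCm38.p6) and the scanner files. Symbols are those of the array; Rps3a was matched to RefSeq's Rps3a1.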

Additional observations from a re-analysis of the deposited data

How the results depend on the processing

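Limma called 0 ribosomal protein genes under each of the alternatives fitted, and 0 genes in all except under scaling to the spike-in probes, which called 6. On the log2 scale, quantile normalisation gave a median difference of 0.040 for the ribosomal protein genes, array shifts of -0.056 in USP8ff 2 and 0.032 in USP8ff_CD4Cre 2, and list medians of 0.12 (other ribosomal proteins), 0.020 (elongation) and 0.075 (initiation). It turned Rpl11 (-0.068), Rpl7a (-0.066), Rplp0 (-0.16), Rplp1 (-0.13), Rplp2 (-0.0058), Rps14 (-0.10), Rps20 (-0.11), Rps23 (-0.16) and Rps27 (-0.12). Cyclic loess gave 0.058 for the set, 0.040 for the shift of USP8ff_CD4Cre 2, 0.12, 0.011 and 0.068 for the same lists, and turned Rpl7a (-0.0054), Rplp0 (-0.095), Rplp1 (-0.033), Rps14 (-0.033), Rps20 (-0.051), Rps23 (-0.092) and Rps27 (-0.10).

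Scaling to the spike-in probes, chosen after the data were seen, gave 0.016 for the set with 45 genes positive, and shifts of 0.0078 in USP8ff 2 and 0.040 in USP8ff_CD4Cre 2. The lists were then at 0.041 (other ribosomal proteins), -0.038 (elongation), 0.0030 (initiation), -0.024 (biogenesis) and -0.093 (regulators), and the median of all genes was -0.12. Turned under it were Rpl11 (-0.0057), Rpl7a (-0.011), Rplp0 (-0.094), Rplp1 (-0.038), Rps14 (-0.039), Rps15a (-0.0047), Rps20 (-0.057), Rps23 (-0.10) and Rps27 (-0.11). Normexp background turned Rps23 (-0.0013) and Rps27 (-0.018), and the mean of kept probes turned Rps20 (-0.090). The cause of these turns was not tested. The median signal percentile of the genes was 99.7. It was 99.1 when the percentiles of each gene's kept probes were averaged, and 99.7 for the unsubtracted mean signal.

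Leaving out 1 array at a time, the median difference ran from 0.087 to 0.22 for the set, from 0.13 to 0.21 for other ribosomal proteins, 0.046 to 0.17 for elongation, 0.065 to 0.19 for initiation and -0.012 to 0.076 for regulators. The signal percentile ran from 99.71 to 99.74. Genes at an unadjusted p under 0.05 ran from 418 (without USP8ff_CD4Cre replicate 2) to 1258. Differences ran from -1.33 to 0.86 for Rpl39l, -0.24 to 0.23 for Rpl4, -0.054 to 0.14 for Rplp0, -0.0011 to 0.079 for Rps23 and -0.047 to 0.10 for Rps27. With a replicate block, limma called 0 genes and 1338 had an unadjusted p under 0.05, against 970. The labels do not say that the numbers pair the samples. The replicate differences of the genotypes correlated at 0.32 across all genes and 0.88 across the 79 ribosomal protein genes. Among their kept probes, the correlation was 0.93 for the 11 below the 75th percentile and 0.42 for the 115 above it. Both 0.88 and 0.93 include Rpl39l, whose samples numbered 1 lay far above those numbered 2. The median replicate difference (2 minus 1) of the 79 genes was -0.11 in USP8ff and 0.10 in USP8ff_CD4Cre. Genes and probes are not independent. With 1 array left in a group, that sample is assumed to vary like the other group.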
